A study of Mus musculus with 24 samples.

Results

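The colony-stimulating factors and their receptors were examined in chromatin accessibility data from cultured mouse macrophages. The set held 10 of the 21840 gene names with a protein-coding start site in the GENCODE annotation used here: the ligands Csf1, Csf2 and Csf3, the receptor chains Csf1r, Csf2ra, Csf2rb, Csf2rb2 and Csf3r, and the related receptor kinases Flt3 and Kit. Membership went by gene name and used no measured value, and every peak was given to the gene with the nearest start site within 100 kb. In peak lists trimmed to 1 length per sequencing lane, Csf1r and Csf2ra had peaks in almost all libraries. Kit and Csf2rb2 had 1 peak each in 1 trimmed list, against 15 peaks in 7 and 31 peaks in 9 of the full lists. In the trimmed lists Flt3 had fewer peaks after 2 doses of lipopolysaccharide (LPS) than in media, by 1.12 ± 0.24 peaks per library (difference ± SE). Of the 6 members tested, Flt3 was the only gene called, while Csf1, Csf2rb, Csf2rb2 and Kit had too few peaks to be tested. This call depended on how the lists were trimmed and on individual animals, as given below.

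Colony-stimulating factors are secreted proteins that set the survival, division and maturation of myeloid cells. CSF1 (M-CSF), encoded by Csf1, binds the receptor tyrosine kinase encoded by Csf1r, on which most macrophages depend. GM-CSF, encoded by Csf2, binds a specific alpha chain, encoded by Csf2ra, paired with the shared beta chain, encoded by Csf2rb, and signals through JAK2 and STAT5. G-CSF, encoded by Csf3, binds the receptor encoded by Csf3r and drives neutrophil production. Flt3 and Kit are relatives of Csf1r and serve blood progenitors, with Flt3 also needed for dendritic cell development and Kit for mast cells.

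Assay for transposase-accessible chromatin sequencing (ATAC-seq), which inserts adapters where DNA is open, was run on bone marrow-derived macrophages (BMDM) of male mice at postnatal day 28. Cultures were grown for 7 days, and the growth protocol in the labels names serum and antibiotics but no colony-stimulating factor. The LPSx2 groups received LPS, a bacterial cell wall component, at 100 ng/ml for 4 hours, a wash, 20 hours of rest and LPS again for 24 hours. The LPSx1 groups received only the later 24 hours of LPS, and the media groups received neither dose. BTBR T+ Itpr3tf/J (BTBR) mice, an inbred strain, gave 4 LPSx2, 4 LPSx1 and 4 media libraries from animals 2, 3, 5 and 8. C57BL6/J mice gave 3 LPSx2, 4 LPSx1 and 3 media libraries from animals 1, 4, 6 and 7, after the LPSx2 and media lists of animal 6 were left out for having 1879 and 299 peaks. The replicate numbers were taken as animals, which the labels call biological replicates.

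Each library was available as a list of peaks of 1 fixed width, with a score that served only to rank peaks within a list. Read depth is unknown, so list length was the only guide to it, and the kept lists ranged from 11349 to 127242 peaks once overlapping peaks were collapsed. Longer lists held more peaks at the 10 genes: the LPSx2 and LPSx1 lists of BTBR animal 2, with 127242 and 112429 peaks, held 17 and 16 peaks at Csf1 alone, against 6 in its media list of 63125 peaks. Lists of 1 sequencing lane were therefore cut to the lane's shortest length, from 11349 to 22037 peaks. In the trimmed lists the 10 genes held 258 of 318660 gene-assigned peaks, or 0.0810%. The total still differed by lane, with 10.0 ± 1.67 peaks per library in lane 1 (SD, n = 6), 20.8 ± 2.99 in lane 2 (n = 6), 9.25 ± 2.99 in lane 3 (n = 4) and 6.00 ± 2.19 in lane 4 (n = 6). It did not follow the limit alone, since lane 1 had the shortest, at 11349 peaks, and lanes 3 and 4 had 16045 and 13957. Lane was a term in every main model, and some alternative fits left it out. Of 8 macrophage marker genes every one had peaks in all 3 treatments, with 5 to 40 summed peaks in LPSx2, 4 to 33 in LPSx1 and 5 to 28 in media libraries, and 1 of them rose with LPSx1. Summed peaks in LPSx2, LPSx1 and media libraries were 2 to 5, 2 to 4 and 2 to 7 for T and NK cell markers. Of these, Klrb1c alone gave 63 peaks, against 5 at Lck, 4 at Cd3d and 0 at Cd3e, Cd3g and Ncr1. B cell, stromal and erythroid markers each summed to at most 2 peaks in any library. Klf1 had peaks in 9 libraries, Dcn in 5, Hbb-bt in 3 and Ms4a1 in 2, while Cd79a and Pax5 were among those at 0 throughout.

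**Figure D1:**
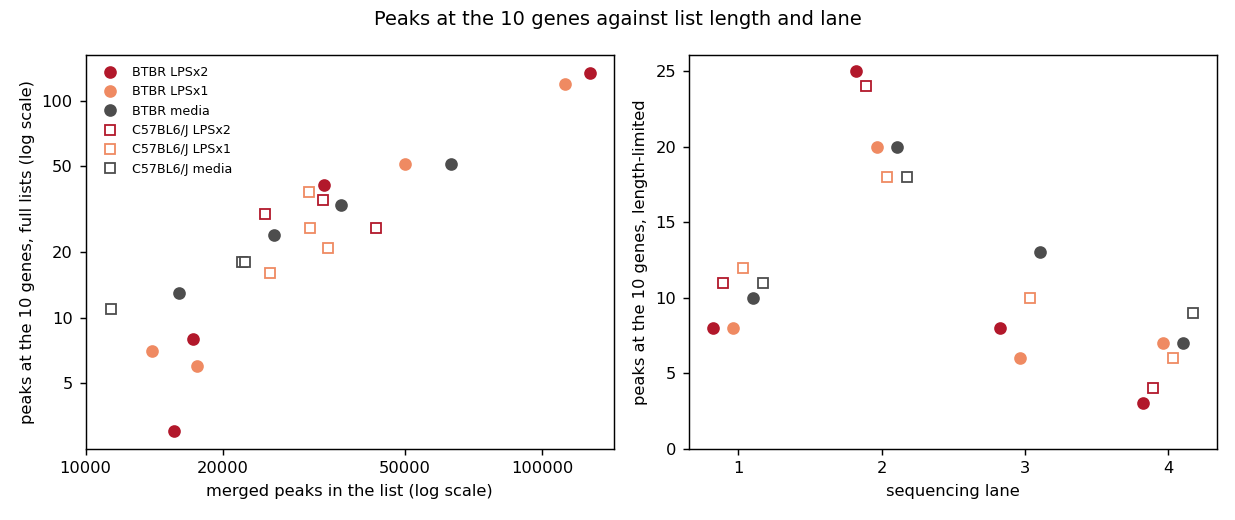
Left, peaks at the 10 genes in the full merged lists against the number of peaks in the list, both on log scales; right, peaks at the 10 genes in the trimmed lists by sequencing lane. Each point is 1 library, filled circles BTBR and open squares C57BL6/J; counts climbed with list length and, after trimming, lane 2 libraries held 18 to 25 peaks and lane 4 libraries 3 to 9.

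Across the 22 trimmed lists, Csf1r had 97 peaks, Csf2ra 48, Csf3 34, Csf3r 25, Flt3 22, Csf2 13, Csf1 9 and Csf2rb 8, while Csf2rb2 and Kit had 1 each. Csf2ra had a peak in all 22 libraries and Csf1r in 21, Csf3 in 19, Csf3r in 18 and Flt3 in 16. Of the 10 genes, 6 reached the mean of 0.5 peaks per library set for testing. Csf1, Csf2rb, Csf2rb2 and Kit did not, and their values are given without a test. Over the 9134 genes that reached this mean, a gene had peaks in a median of 20 libraries.

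**Figure D2:**
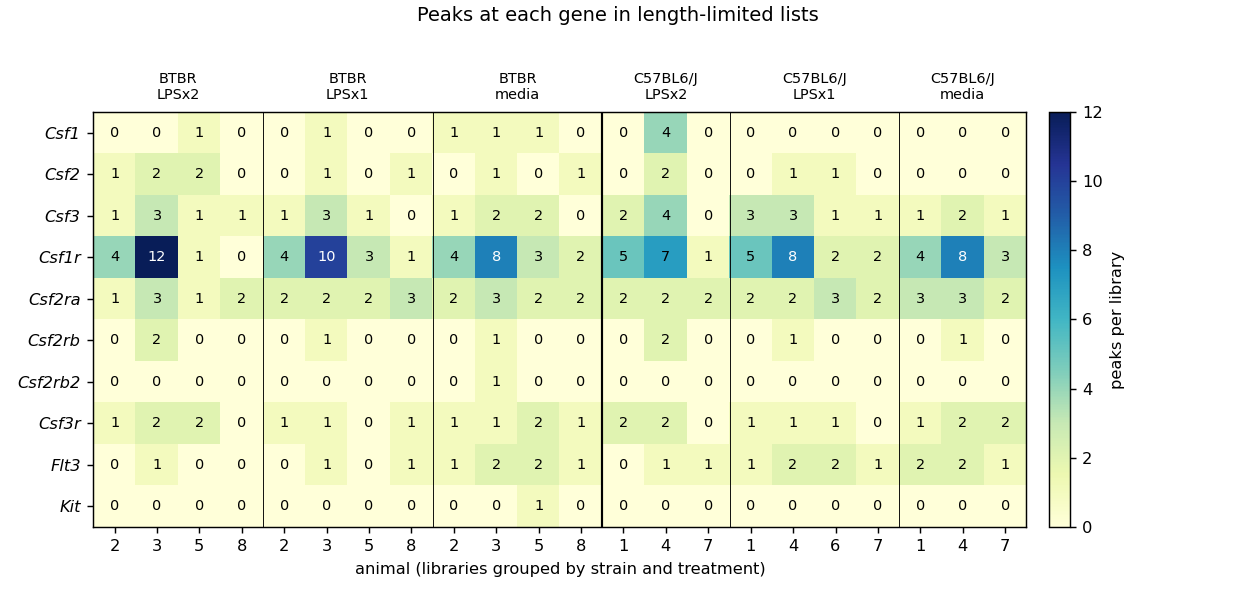
Number of peaks at each of the 10 genes (rows) in each of the 22 libraries (columns, by animal) after lists were cut to equal length within a lane; colour repeats the printed number. Csf1r reached 12 peaks in BTBR LPSx2 animal 3, Csf2ra had at least 1 peak everywhere, and Kit and Csf2rb2 were at 0 in all but 1 library.

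Of the ligands, Csf2 (chromosome 11, 54247271 to 54249667, minus strand, mm10) had 0 to 2 peaks, median 1, in the 7 LPSx2 libraries, 0 to 1, median 0.5, in the 8 LPSx1 libraries and 0 to 1, median 0, in the 7 media libraries. The groups overlapped, although the 3 counts of 2 peaks were all in LPSx2 libraries, from BTBR animals 3 and 5 and C57BL6/J animal 4. The LPSx2 minus media difference was 0.71 ± 0.33 peaks (SE; adjusted p = 0.199, limma, Benjamini-Hochberg over all 9134 genes tested), with 4 of 7 animals higher, 1 lower and 2 equal. The gene's most often seen region lay 12.5 kb downstream of its start, between genes, and was present in 4 of 7 LPSx2, 3 of 8 LPSx1 and 2 of 7 media libraries. The peak-width window at its centre is shown because it holds a PU.1 and a C/EBP motif, both in capitals; PU.1 and C/EBP are factors that define the myeloid lineage. Its coordinates are chr11:54237089-54237289 on the plus strand of mm10.
Csf2 +12.5 kb: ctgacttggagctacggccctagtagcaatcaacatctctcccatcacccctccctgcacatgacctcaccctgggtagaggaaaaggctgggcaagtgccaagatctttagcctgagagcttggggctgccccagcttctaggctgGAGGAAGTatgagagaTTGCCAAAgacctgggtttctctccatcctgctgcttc

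Csf3 (chromosome 11, 98701263 to 98703629, plus strand) had 0 to 4 peaks, median 1, in LPSx2 libraries, 0 to 3, median 1, in LPSx1 libraries and 0 to 2, median 1, in media libraries. The ranges overlapped, and the differences from media were 0.46 ± 0.37 peaks for LPSx2 (adjusted p = 0.482, limma) and 0.38 ± 0.36 for LPSx1 (adjusted p = 0.599, limma). None of its 4 regions lay within 1 kb of its start. All 4 lay 7.47 to 9.41 kb downstream, inside introns of the neighbouring gene Med24, which encodes a Mediator subunit, so their assignment to Csf3 rests on distance alone. The region at 9.41 kb was present in 5 of 7 LPSx2, 7 of 8 LPSx1 and 6 of 7 media libraries. Its rank percentile, the share of a list's peaks with a lower score and 0 where no peak was called, averaged 51.2 ± 36.6 in LPSx2, 60.1 ± 35.6 in LPSx1 and 34.9 ± 28.3 in media libraries (SD). The LPSx1 minus media difference was 28.0 ± 11.3 points (SE; adjusted p = 0.0857, limma over 28794 regions), with 6 of 7 animals higher and 1 equal. It was 42.9 points among the libraries of lanes 1 and 2, against 1.59 points among those of lanes 3 and 4. Without animal 7 it was 37.7 points (adjusted p = 0.0134, limma) and without animal 8 it was 32.0 points (adjusted p = 0.0401, limma), so the call depended on which animals entered. The LPSx2 minus media difference, 15.4 ± 11.6 points (SE; adjusted p = 0.358, limma), was 32.3 points without animal 7 (adjusted p = 0.0393, limma). The central window, chr11:98710598-98710798 on the plus strand, is shown as the most often seen region of a ligand gene; none of the motifs searched was found in it.
Csf3 +9.41 kb: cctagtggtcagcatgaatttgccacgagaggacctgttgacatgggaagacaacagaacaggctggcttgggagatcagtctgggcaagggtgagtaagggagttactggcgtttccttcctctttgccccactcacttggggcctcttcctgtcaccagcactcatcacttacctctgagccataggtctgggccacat

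Csf1 (chromosome 3, 107741048 to 107760469, minus strand) had peaks in 2 of 7 LPSx2, 1 of 8 LPSx1 and 3 of 7 media libraries. C57BL6/J LPSx2 animal 4 held 4 of the 9 peaks, at 4 upstream regions of which none was present in another trimmed list. A region at -21.0 kb, between genes, was present in the media libraries of BTBR animals 2, 3 and 5 and in no other library. It thus reached the 3 libraries needed for testing through media alone. Its LPSx1 minus media difference was -8.58 ± 4.04 percentile points (SE, adjusted p = 0.141, limma). This pattern was not seen in the full merged lists, where the region was present in 3 of 7 LPSx2, 4 of 8 LPSx1 and 5 of 7 media libraries, 8 from BTBR and 4 from C57BL6/J, with an LPSx1 minus media difference of 0.01 ± 13.0 points (SE). The promoter of Csf1 was present in 1 trimmed list, from BTBR LPSx2 animal 5, at a percentile of 27.6.

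Among the receptors, Csf1r (chromosome 18, 61100598 to 61132149, plus strand, mm10) carried more peaks than any other member. It had 0 to 12 peaks, median 4, in LPSx2 libraries, 1 to 10, median 3.5, in LPSx1 libraries and 2 to 8, median 4, in media libraries. The groups overlapped almost fully, and the spread followed the lane: the 6 libraries of lane 2 held 7 to 12 peaks. The LPSx2 minus media difference was -0.33 ± 0.74 peaks (SE; 95% interval -1.92 to 1.25; adjusted p = 0.848, limma) and the LPSx1 minus media difference 0.09 ± 0.72 (95% interval -1.45 to 1.63; adjusted p = 1, limma). Among libraries of lanes 1 and 2 the LPSx2 libraries held 1 peak more than media, while in the other lanes the difference was -2. Of the 16 regions at Csf1r, 9 were seen in at least 3 libraries, and 6 of those lay in introns of the gene. The most often seen, 2.83 kb downstream of the nearest annotated start and in the first intron, was present in 6 of 7 LPSx2, 8 of 8 LPSx1 and 7 of 7 media libraries, at a median percentile of 81.2 where present. Csf1r is known to carry an enhancer near its start, the fms intronic regulatory element, whose coordinates were not used here. The mean percentile of this region was 56.3 ± 41.6 in LPSx2, 67.5 ± 20.8 in LPSx1 and 78.2 ± 14.9 in media libraries (SD); the LPSx2 minus media difference was -22.2 ± 8.63 points (SE; adjusted p = 0.0674, limma), and without animal 1 or animal 2 the limma adjusted p was 0.0466 and 0.0447. The lowest values came from BTBR LPSx2 animal 8, which had no peak there, and C57BL6/J LPSx2 animal 7, at 6.64.

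The macrophage promoter of Csf1r, at -0.13 kb, was present in 4 of 7 LPSx2, 6 of 8 LPSx1 and 3 of 7 media libraries, and its percentile averaged 29.0 ± 34.3, 25.5 ± 28.6 and 8.14 ± 11.6 in those groups (SD). It was higher than in media by 21.5 ± 9.77 points in LPSx2 (SE; adjusted p = 0.119, limma) and by 17.5 ± 9.5 in LPSx1 (adjusted p = 0.203, limma). A region in the tenth intron, at 14.9 kb, was present in 4 of 7 LPSx2, 6 of 8 LPSx1 and 6 of 7 media libraries. At the 3' end of the gene, where the annotated ends of Csf1r and Hmgxb3 overlap, the region at 26.3 kb was present in 4 of 7 LPSx2, 3 of 8 LPSx1 and 2 of 7 media libraries, with an LPSx2 minus media difference of 24.9 ± 10.3 points (SE; adjusted p = 0.0865, limma). None of these differences passed adjustment, and 3 of the 4 turned between lanes in LPSx2 against media. The promoter difference was 39.0 points in the first pair of lanes and -2.60 in the second, and that at 26.3 kb was 50.9 and -9.14 points. At 2.83 kb it was 2.13 and -60.2 points, and at 14.9 kb -5.00 and -34.6 points.

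Csf2rb (chromosome 15, 78325752 to 78353847, plus strand), the beta chain shared by the receptors for GM-CSF, IL-3 and IL-5, had peaks in 2 of 7 LPSx2, 2 of 8 LPSx1 and 2 of 7 media libraries. All 6 of those libraries were in lane 2, from animals 3 and 4. Its promoter region, at -0.05 kb, was present in 2 of 7, 1 of 8 and 1 of 7 of these groups. Csf2rb2, a mouse-specific beta chain for IL-3 encoded 20031 bp away, had its 1 peak at its promoter, in the media library of BTBR animal 3. The coding and flanking sequences of these paralogs are closely similar, so the division of reads between them is uncertain; its part in the low counts was not tested. In the full merged lists the Csf2rb promoter was present in 5 of 7 LPSx2, 5 of 8 LPSx1 and 5 of 7 media libraries.

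Csf2ra (chromosome 19, 61223957 to 61228429, minus strand), the GM-CSF-specific alpha chain, had the steadiest profile of the set. It had 1 to 3 peaks, median 2, in LPSx2 libraries, 2 to 3, median 2, in LPSx1 libraries and 2 to 3, median 2, in media libraries. The LPSx2 libraries of BTBR animals 2 and 5 were the 2 with a single peak. The LPSx2 minus media difference was -0.58 ± 0.32 peaks (SE; adjusted p = 0.284, limma), with 4 of 7 animals lower and 3 equal, and the LPSx1 minus media difference was -0.19 ± 0.31 (adjusted p = 0.800, limma). A region over the second, internal start site annotated for the gene was present in all 22 libraries, as were 6.65% of all 45006 regions. Its percentile averaged 67.1 ± 22.4 in LPSx2, 70.5 ± 13.1 in LPSx1 and 73.1 ± 19.4 in media libraries (SD), and the groups overlapped. A second region 16.5 kb upstream, between genes, was present in 4 of 7 LPSx2, 7 of 8 LPSx1 and 5 of 7 media libraries; its LPSx2 minus media difference was -22.5 ± 10.8 points (SE; adjusted p = 0.139, limma). The sequence directly upstream of this internal start, chr19:61227377-61227456, is shown because every library opened this region, and the distal sequence, chr19:61244803-61245003, because it holds a PU.1 motif and 2 interferon regulatory factor (IRF) motifs, in capitals. Both are on the plus strand of mm10.
Csf2ra start: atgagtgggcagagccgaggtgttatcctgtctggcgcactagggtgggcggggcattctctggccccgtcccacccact
Csf2ra -16.5 kb: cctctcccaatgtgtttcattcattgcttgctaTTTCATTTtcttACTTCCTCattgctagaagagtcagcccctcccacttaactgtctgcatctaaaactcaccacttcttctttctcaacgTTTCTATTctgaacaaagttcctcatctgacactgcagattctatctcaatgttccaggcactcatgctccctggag

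Csf3r (chromosome 4, 126024550 to 126044440, plus strand), the G-CSF receptor, had 0 to 2 peaks, median 2, in LPSx2 libraries, 0 to 1, median 1, in LPSx1 libraries and 1 to 2, median 1, in media libraries. No LPSx1 library had 2 peaks, while 4 LPSx2 and 3 media libraries did. The LPSx1 minus media difference was -0.75 ± 0.35 peaks (SE; adjusted p = 0.226, limma), with 3 of 7 animals lower and 4 equal, and the LPSx2 minus media difference was -0.17 ± 0.36 (adjusted p = 0.840, limma). In the full merged lists both differences had the other sign and did not pass, with 3.43 ± 3.15 peaks in LPSx2, 3.00 ± 2.45 in LPSx1 and 2.14 ± 0.69 in media libraries (SD). Csf3r is best known in neutrophils. The 6 neutrophil markers examined together had 1 to 4 peaks in LPSx2, 1 to 3 in LPSx1 and 0 to 2 in media libraries. Camp had a peak in 18 libraries and S100a8 in 17, against 3 for S100a9, 1 for Mpo and 0 for Elane and Ly6g. Of the 2 markers with enough peaks, 1 rose in each comparison of LPS with media. The part of this list in the Csf3r values was not tested. The region at -5.41 kb, between genes, was present in 5 of 7 LPSx2, 6 of 8 LPSx1 and 7 of 7 media libraries. Its percentile averaged 25 ± 22.1, 30.1 ± 31.7 and 45.3 ± 21.4 in those groups (SD), and the LPSx2 minus media difference was -21.3 ± 9.41 points (SE; adjusted p = 0.109, limma). The Csf3r promoter, at 0.13 kb, was present in 1 of 7 LPSx2, 0 of 8 LPSx1 and 3 of 7 media libraries; its LPSx1 minus media difference was -14.1 ± 5.47 points (SE; adjusted p = 0.0750, limma), and the adjusted p was 0.0419 without animal 1. The promoter reached the 3 libraries needed for testing only through its media libraries, so the filter favoured a fall from media. The centre of the upstream region, chr4:126019074-126019274 on the plus strand, is shown as the most often seen region of the gene; capitals mark 1 C/EBP and 2 IRF motifs.
Csf3r -5.41 kb: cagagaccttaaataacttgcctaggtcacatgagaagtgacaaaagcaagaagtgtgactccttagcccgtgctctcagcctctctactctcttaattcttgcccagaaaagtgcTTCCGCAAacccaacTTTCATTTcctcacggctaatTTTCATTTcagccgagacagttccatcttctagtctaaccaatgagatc

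A further Csf3r region, at -20.4 kb, went the other way. In the trimmed lists it was present in 3 of 7 LPSx2, 0 of 8 LPSx1 and 0 of 7 media libraries, with an LPSx2 minus media difference of 12.9 ± 4.74 points (SE; adjusted p = 0.0547, limma; 0.0287 without animal 7). It thus reached the 3 libraries needed for testing through LPSx2 alone, so the sign of this difference was fixed by the filter. In the full merged lists it was present in 5 of 7 LPSx2, 4 of 8 LPSx1 and 0 of 7 media libraries, and there it passed the test, with a difference of 46.5 ± 13.1 points (SE; adjusted p = 0.0180, limma). There too it entered the test through LPS libraries alone. Median list length was 33184 peaks in LPSx2, 30872 in LPSx1 and 22382 in media libraries, and its part in this result was not tested. Other distal regions were likewise present in LPS libraries and in 0 of 7 media libraries of the full lists and did not pass, such as one at -12.5 kb of Csf1, in 5 of 7 LPSx2 and 4 of 8 LPSx1 libraries (adjusted p = 0.260 for LPSx2 against media, limma).

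Flt3 (chromosome 5, 147330741 to 147400489, minus strand) encodes the receptor for FLT3 ligand, a growth factor of progenitors and dendritic cells. In BTBR libraries it had 0, 1, 0 and 0 peaks in LPSx2 animals 2, 3, 5 and 8, 0, 1, 0 and 1 peaks in LPSx1 and 1, 2, 2 and 1 peaks in media. In C57BL6/J libraries it had 0, 1 and 1 peaks in LPSx2 animals 1, 4 and 7, 1, 2, 2 and 1 peaks in LPSx1 animals 1, 4, 6 and 7, and 2, 2 and 1 peaks in media animals 1, 4 and 7. No LPSx2 library had 2 peaks and no media library had 0, though both groups held libraries with 1. The mean was 0.429 ± 0.535 peaks in LPSx2 (SD, n = 7), 1.00 ± 0.756 in LPSx1 (SD, n = 8) and 1.57 ± 0.535 in media libraries (SD, n = 7). The LPSx2 minus media difference was -1.12 ± 0.24 peaks (SE; 95% interval -1.65 to -0.60; adjusted p = 0.0168, limma), and 6 of 7 animals were lower and 1 equal. Computed within lanes, it was -1.25 for the first pair of lanes and -0.75 for the second. The LPSx1 minus media difference was -0.59 ± 0.24 (adjusted p = 0.157, limma), with 4 of 7 animals lower and 3 equal, and the LPSx2 minus LPSx1 difference -0.53 ± 0.24 (adjusted p = 0.980, limma).

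The Flt3 call was lost in the full merged lists, where the LPSx2 minus media difference was -0.25 peaks (adjusted p = 0.934, limma), and without the 7 lists that held most peaks in duplicate (-0.67 peaks, adjusted p = 0.485). Those 7 lists include the media lists of animals 1, 3 and 4, 3 of the 4 media libraries with 2 Flt3 peaks. It was also lost without animal 1 (-0.88 peaks) or animal 4 (-1.12 peaks), at limma adjusted p of 0.0924 and 0.0810, and with no lane term or with peaks limited to 25 kb, at 0.0773 and 0.0934. Flt3 is a dendritic cell marker too. The 4 other dendritic cell markers examined were Zbtb46, Xcr1, Cd209a and Siglech. Together they had 0 to 2 peaks, median 1, in LPSx2 and 1 to 2, median 1.5, in LPSx1 libraries. Media libraries had 0 to 4, median 2. Zbtb46 had peaks in 13 libraries, Cd209a in 9, Xcr1 in 6 and Siglech in 2, neither from media. Only 1 of the 4 had enough peaks to be tested, and it did not pass for LPSx2 or LPSx1 against media. Fewer cells of a type and less open chromatin per cell cannot be told apart in such bulk libraries, and the part of this list in the Flt3 result was not tested.

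In the trimmed lists Flt3 peaks came from 2 intronic regions, and its promoter was in no list. The region at 37.3 kb, in the ninth intron (chr5:147363107-147363361), was present in 0 of 7 LPSx2, 2 of 8 LPSx1 and 4 of 7 media libraries. Media libraries with it were BTBR animals 3 and 5, at percentiles 54.3 and 21.1, and C57BL6/J animals 1 and 4, at 24.4 and 55.9. LPSx1 libraries with it were C57BL6/J animals 4 and 6, at 17.9 and 24.0. The LPSx2 minus media difference was -22.8 ± 7.56 points (SE; adjusted p = 0.0341, limma over 28794 regions), and the LPSx1 minus media difference -18.2 ± 7.35 (adjusted p = 0.0861, limma). Without its media libraries this region would not have reached the 3 libraries needed for testing, so the filter favoured a fall from media. With no filter on rare regions the LPSx2 difference did not pass (adjusted p = 0.0651, limma). Within lanes, the LPSx2 difference was -33.6 points for lanes 1 and 2, against -5.28 for the others, and 4 of 7 animals were lower and 3 had no peak in either library. Without animals 1, 3, 4 or 5, left out in turn, the limma adjusted p ran between 0.0686 and 0.188, and without the 7 lists with duplicates the difference was -3.52 points (adjusted p = 0.835). In the full lists this region was present in 3 of 7 LPSx2, 5 of 8 LPSx1 and 7 of 7 media libraries (difference -22.7 ± 13.9 points, SE; adjusted p = 0.531, limma).

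The region at 11.3 kb, in the first intron of Flt3, was present in 3 of 7 LPSx2, 6 of 8 LPSx1 and 7 of 7 media libraries. Its percentile averaged 21.9 ± 33.7, 29.5 ± 26.7 and 34.5 ± 21.3 in those groups (SD), and where present in LPSx2 it was 15.0 in BTBR animal 3, 54.7 in C57BL6/J animal 4 and 83.3 in C57BL6/J animal 7. The last of these was the highest value in any library, and the LPSx2 minus media difference was -9.00 ± 11.5 points (SE; adjusted p = 0.610, limma). This difference turned between lanes, at -22.0 points for lanes 1 and 2 and 15.0 points for lanes 3 and 4. The central windows of both regions are shown, on the plus strand of mm10, because all Flt3 peaks of the trimmed lists came from them. In the first, chr5:147363132-147363332, capitals mark a PU.1 and a C/EBP motif separated by 3 bases; in the second, chr5:147389117-147389317, a RUNX motif.
Flt3 +37.3 kb: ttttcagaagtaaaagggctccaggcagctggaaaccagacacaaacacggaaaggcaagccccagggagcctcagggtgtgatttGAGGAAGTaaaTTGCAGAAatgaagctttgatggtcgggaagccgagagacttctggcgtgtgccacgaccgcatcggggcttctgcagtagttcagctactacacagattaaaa
Flt3 +11.3 kb: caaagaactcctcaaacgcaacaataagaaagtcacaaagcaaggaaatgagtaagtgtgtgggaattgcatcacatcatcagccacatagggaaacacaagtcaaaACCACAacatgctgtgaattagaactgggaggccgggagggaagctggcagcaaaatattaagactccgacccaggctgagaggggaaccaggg

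**Figure D3:**
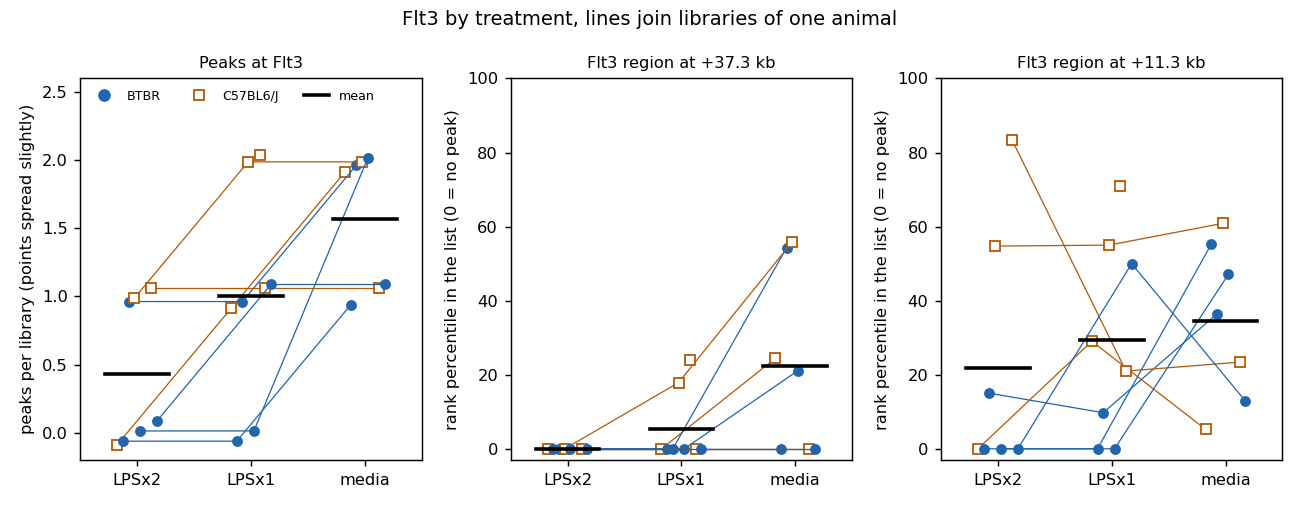
Left, Flt3 peaks per library by treatment; middle and right, rank percentile of the Flt3 regions at 37.3 and 11.3 kb, where 0 means no peak. Points are libraries, lines join libraries of 1 animal and black bars are means; 6 of 7 animals had fewer Flt3 peaks in LPSx2 than in media, and no LPSx2 library had the region at 37.3 kb.

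Kit (chromosome 5, 75574916 to 75656722, plus strand), the receptor for stem cell factor, had 1 peak in the trimmed lists, 0.25 kb inside the gene, in the media library of BTBR animal 5 at a percentile of 3.73. In the full merged lists it had 15 peaks in 7 of 22 libraries, of which 11 were in the 3 lists of BTBR animal 2. Of the 6 other mast cell and progenitor markers, Cpa3, Mcpt4, Fcer1a and Gata2 had no peak in any trimmed list. The list's sums, 2 to 7 peaks in LPSx2, 2 to 8 in LPSx1 and 2 to 5 in media libraries, came almost wholly from Cd34, with 93 peaks, against 4 at Tpsab1.

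Over the 6 members tested, 0 of 6 passed for LPSx1 against media (limma, adjusted p under 0.05; 2 at an unadjusted p under 0.05, as had 21.7% of all genes), against 495 of 9134 genes, or 5.42%. For LPSx2 against media 1 of 6 passed, Flt3 (2 unadjusted, against 24.6% of all genes), against 6.36% of all genes in either direction and 3.02% that were lower. The median difference over the 6 members was -0.25 peaks for LPSx2 and -0.05 for LPSx1, and over all genes tested it was 0 for both. For LPSx2 against LPSx1 0 of 6 passed (1 at an unadjusted p under 0.05, against 4.6% of all), against 0% of all genes. For BTBR against C57BL6/J 0 of 6 passed (1 unadjusted, Flt3, against 12.7% of all), against 1.08%. The strain difference in the response to LPSx1 was called for 0 of 6 (0 unadjusted, against 5.78% of all), against 0.0219% of genes, and that in the response to LPSx2 for 0 of 6 (0 unadjusted, against 6.56% of all), against 0%.

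**Figure D4:**
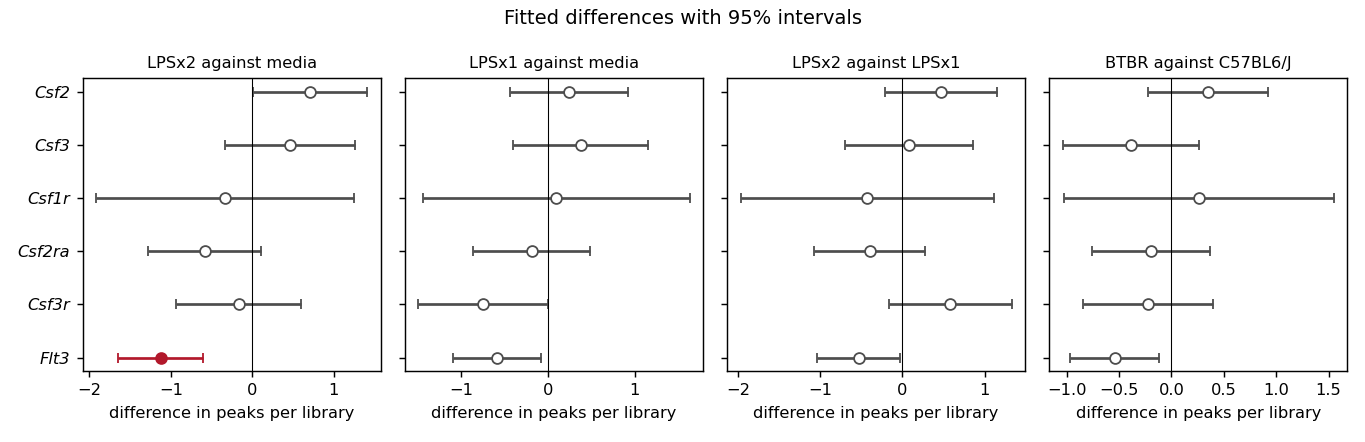
Fitted difference in peaks per library for the 6 members tested, with 95% intervals from limma, in 4 comparisons. The filled point is the difference with an adjusted p under 0.05, Flt3 in LPSx2 against media; every other interval belongs to a difference that did not pass.

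By strain, Flt3 averaged 0.750 ± 0.754 peaks in BTBR (SD, n = 12) and 1.30 ± 0.675 in C57BL6/J libraries (SD, n = 10). The BTBR minus C57BL6/J difference was -0.54 ± 0.20 peaks (SE; adjusted p = 0.253, limma with animals as a random term). Its region at 11.3 kb was present in 7 of 12 BTBR and 9 of 10 C57BL6/J libraries (difference -21.7 ± 9.01 points, SE; adjusted p = 0.201, limma). Csf2 averaged 0.750 ± 0.754 peaks in BTBR and 0.400 ± 0.699 in C57BL6/J libraries (SD), with a difference of 0.35 ± 0.27 (SE; adjusted p = 0.659, limma). Csf1r averaged 4.33 ± 3.75 and 4.5 ± 2.55 in those strains (SD), with a fitted difference of 0.26 ± 0.60 (SE; 95% interval -1.02 to 1.55; adjusted p = 0.930, limma). The 3 libraries with the Csf2rb region at -4.74 kb all came from BTBR animal 3, so this region gave no comparison of the strains.

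The 10 genes had 45 regions in the trimmed lists, of which 24 were present in at least 3 libraries and tested. Of all 45, 9 lay within 1 kb of a start site, or 20.0%, against 30.2% of all regions. Of the 24, 0 passed for LPSx1 against media (limma; 5 at an unadjusted p under 0.05, as had 31.4% of all regions), against 15.4% of 28794 regions. For LPSx2 against media 1 of 24 passed, the Flt3 region at 37.3 kb (9 unadjusted, against 33.4% of all), against 17.6% in either direction and 9.39% that were lower. For LPSx2 against LPSx1 0 of 24 passed (2 unadjusted, against 5.28% of all), against 0%, and for BTBR against C57BL6/J 0 of 24 (1 unadjusted, against 16.8% of all), against 3.65%. Counts of 0 and 1 of 24 are too small to set the member regions apart from all regions. Leaving out 1 animal gave 0 to 1 for LPSx1 and 0 to 3 for LPSx2. At an unadjusted p under 0.05 (limma), the member share for LPSx2, 9 of 24, was not below that of all regions. The median difference over the 24 regions was -7.18 points for LPSx2 and -4.78 for LPSx1 against media, and over all regions 0.27 and 0.52.

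**Figure D5:**
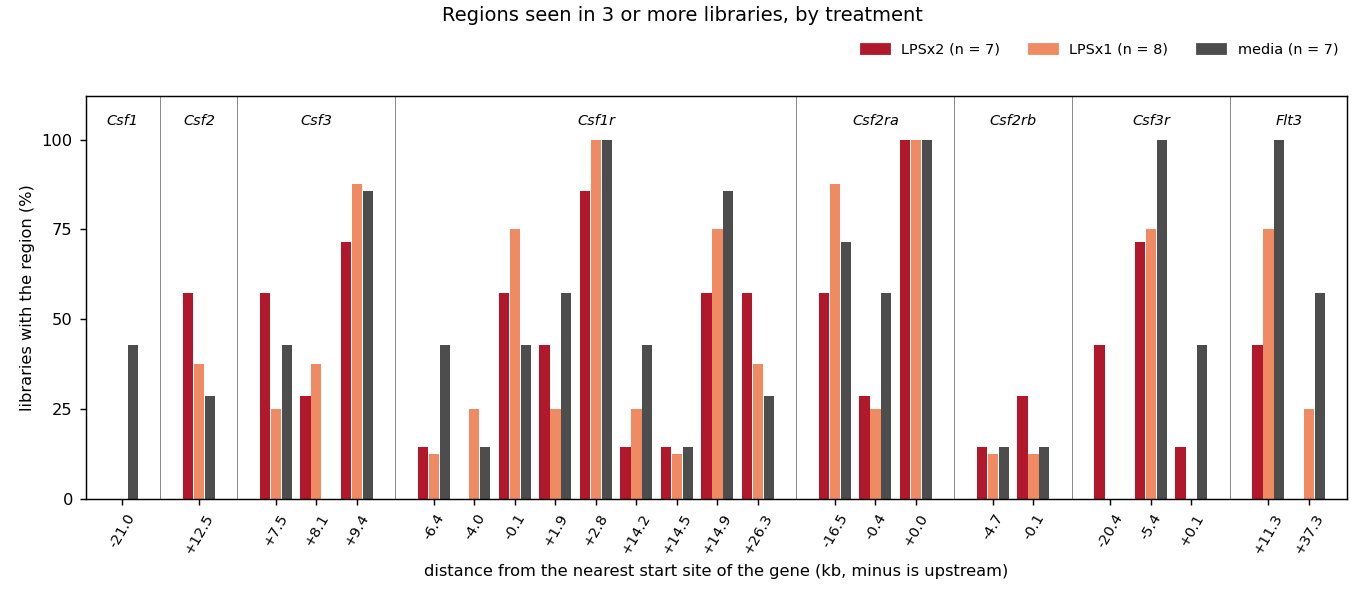
Share of libraries, in percent, with each of the 24 member regions present in 3 or more libraries, by treatment, ordered within a gene by distance from its start site in kb. Only the Csf2ra region at its start reached 100% in all 3 treatments; the Flt3 regions were least often present in LPSx2, and the Csf3r region at -20.4 kb was present in LPSx2 alone.

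Motifs were searched on both strands in the peak-width windows at the centres of regions: PU.1 as GAGGAAGT, C/EBP as TTGCNNAA, IRF as AANNGAAA, RUNX as TGTGGT, AP-1 as TGACTCA, STAT as TTCNNNGAA and NF-kB by its consensus. Matches of different motifs may overlap. The 16 Csf1r regions were not searched here, so the shares describe the other 9 genes alone. Of their 29 regions, 5 held the PU.1 motif, or 17.2%, against 8.89% of all 45006 regions. For C/EBP the shares were 17.2% and 12.8%, for IRF 20.7% and 19.7%, for RUNX 17.2% and 17.8%, for STAT 17.2% and 5.53%, for AP-1 6.90% and 16.2% and for NF-kB 3.45% and 4.08%. These are counts of at most 6 regions, and a match of letters is not evidence of binding.

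Of 49 other genes of the pathway, 40 had enough peaks to be tested. For LPSx1 against media 1 rose and 0 fell: Pik3r1, the regulatory subunit of PI3 kinase, had 6.00 ± 2.62 peaks in LPSx1 and 3.71 ± 1.25 in media libraries (SD, n = 8 and 7), a difference of 2.29 ± 0.60 (SE; adjusted p = 0.0406, limma; higher in 6 of 7 animals). With animals as a replicate block the adjusted p was 0.0691, and the call was lost in 18 of 22 alternatives. For LPSx2 against media 0 rose and 1 fell: Sos1, an exchange factor that activates Ras, had 0.857 ± 0.378 peaks in LPSx2 and 1.57 ± 0.535 in media libraries (SD, n = 7 each), a difference of -0.75 ± 0.20 (SE; adjusted p = 0.0388, limma; lower in 5 of 7 animals). In the full merged lists the Sos1 difference had the other sign, 0.92 peaks (adjusted p = 0.846, limma). Of 22 alternatives, 11 lost the Sos1 call, among them another order of tied peaks (adjusted p = 0.148, limma), and 2 turned its sign. Cebpb, a transcription factor of the inflammatory response, had 13.3 ± 6.92 peaks in LPSx2 and 7.00 ± 2.08 in media libraries (SD), a difference of 6.21 ± 1.75 (SE; adjusted p = 0.0506, limma). No gene of these lists passed in the other comparisons, where Cebpb and Egr2 differed most between LPSx2 and LPSx1 (1.49 and -0.97 peaks) and Runx1 and Cebpb most between BTBR and C57BL6/J (1.97 and 1.65 peaks). The strain differences in response were largest at Runx1 and Lyn for LPSx1 (-3.46 and -2.35 peaks) and at Egr2 and Socs3 for LPSx2 (-2.08 peaks each). Of 18 genes flanking the members, 10 were tested and 0 passed in any of the 6 comparisons.

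Among all tested genes, those whose peak number ranked most like Flt3 over the 22 libraries were Atp6v1b2, Degs1 and BC016579, at Spearman's rho of 0.886, 0.801 and 0.794. For Csf1r they were Irf2, Klf6 and Lyn, at 0.940, 0.934 and 0.928, and for Csf2ra Xiap, Pygl and Kat7, at 0.822, 0.751 and 0.717. Libraries of a lane share a list length, so lane enters these values, which are given as a description.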

How the data were processed

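ATAC-seq peak lists of 24 libraries from 8 mice were used. Per the submitters' processing notes, the tools included Trimmomatic 0.38, SAMtools 1.8, Picard 2.18.4, HOMER and bedtools, with the mm10 build; the aligner is not given in the sources used here. Each deposited peak carries a score in column 4 that comes from the authors; how it was scaled is not given in the sources used here, so it served to order the peaks of 1 list and was never compared between lists. The set of genes and the lists were proposed with earlier results of these data known, so no p-value is given over the set as a whole.

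Overlapping peaks were collapsed to the highest score, lists under 5000 peaks were left out (2 of 24), and each list was cut to the shortest of its lane, with 178 to 2055 tied peaks at the limit taken in a fixed random order. Of the kept lists, 7 held at least 66.7% of their peaks overlapping another, and the others at most 0.213%. Peaks were assigned to the nearest GENCODE M21 protein-coding start site within 100 kb. Peak numbers of 9134 genes with a mean of at least 0.5 were fitted with limma 3.58.1 in R 4.3.3 (trend, robust), with 6 groups and lane. Strain was tested with animal as a random term. Regions in at least 3 libraries were fitted likewise on the rank percentile. P-values were adjusted by Benjamini-Hochberg with a threshold of 0.05, and the fits were tested on simulated data. P-values were computed against the spread between these libraries. The main treatment fits took the libraries of an animal as independent. The strain fits found almost no correlation within an animal once lane was in the model, which does not show independence. Neither kind of fit rests on the spread between animals alone.

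Same-numbered libraries, taken as 1 animal, deviated together in all 21 pairs (Pearson's r 0.191 to 0.798) and were treated as paired in the replicate block. Much of this is shared with the lane: the other animal of a lane gave a median r of 0.358, and with lane removed the same-animal r was -0.286 to 0.457 (median -0.0287). With lane removed, the other animal of a lane gave a median r of -0.385, below that of the same animal. Removing a lane mean that its animals share lowers both values. A same-animal r near 0 thus does not show that libraries of an animal are independent. The animal correlations fitted with lane were -0.00432 for genes and -0.0408 for regions. All 10 genes are named; of the pathway list, genes that passed, otherwise those with the largest difference. Alternatives covered list trimming, distance, filters, lane, duplicates, the replicate block and leaving out each animal; a different start site, another tie order and leaving out animal 2 were added after seeing the data. Sequences were read from the GRCm38 genome.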

Additional observations from a re-analysis of the deposited data

Results flagged for a closer look

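In 17 of 33 groups of 4 libraries with any variation at a member gene, 1 library stood apart from the other 3. Chance flags about 1 in 20 groups, but peak numbers are small whole numbers, and any lone library that differs by 1 peak from 3 equal ones is flagged. At Csf1, BTBR LPSx2 animal 5 had 1 peak and BTBR LPSx1 animal 3 had 1, against 0 in the others, and BTBR media animal 8 had 0, against 1. At Csf2ra, BTBR LPSx1 animal 8, BTBR media animal 3 and C57BL6/J LPSx1 animal 6 had 3 peaks each, against 2 in the others of their group. At Csf2rb, BTBR animal 3 had 2 peaks in LPSx2, 1 in LPSx1 and 1 in media, and C57BL6/J LPSx1 animal 4 had 1, against 0 in the others. BTBR media animal 3 also had 1 peak at Csf2rb2, against 0. At Csf3, BTBR LPSx2 animal 3 had 3 peaks, against 1. At Csf3r, BTBR LPSx1 animal 5 and C57BL6/J LPSx1 animal 7 had 0, against 1, and BTBR media animal 5 had 2, against 1. At Flt3, BTBR LPSx2 animal 3 had 1 peak, against 0, and at Kit, BTBR media animal 5 had 1, against 0. Animals 3 and 4 were in lane 2, whose lists were cut at the longest limit.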

How the results depend on the processing

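The number of members called for LPSx2 against media was 1 and went to 0 with full merged lists, with lists limited within an animal and a replicate block, with the stronger 50% of each list (where Flt3 had too few peaks to be tested), without the lists with duplicates, with no library left out, with peaks within 25 kb, with no lane term and in lanes 1 and 2 alone; leaving out 1 animal gave 0 to 1. For LPSx1 it was 0 and became 1 (Flt3) with peaks not merged. Member regions called numbered 0 for LPSx1 (0 to 1 leaving out 1 animal) and 1 for LPSx2 (0 to 3 leaving out 1 animal). The LPSx2 count of regions was 0 with no filter on rare regions, with no lane term, without the lists with duplicates and scored as detected or not. The cause was not tested. With the replicate block Flt3 kept its call (adjusted p = 0.0325, limma), as did its region at 37.3 kb (0.0452); the block ended the Pik3r1 call and changed no other call of a member. The Sos1 difference was 0.92 peaks in full merged lists and 0.75 with no library left out, reversed from -0.75. Over all genes, calls for LPSx2 against media were 1.14% of those tested without the lists with duplicates and 1.12% in lanes 1 and 2, against 6.36%; they numbered 581, against 0 in full merged lists, 149 with no lane term, 313 with the stronger 50%, 924 with no filter and 1287 unmerged, and 192 to 571 leaving out 1 animal; for LPSx1 they numbered 495, against 0 in full merged lists, 99 without the lists with duplicates, 107 in lanes 1 and 2, 110 with no lane term, 211 with the stronger 50%, 820 with no filter and 197 to 432 leaving out 1 animal. For strain, 99 calls became 0 in full merged lists and 3 with animals compared by their means. Region calls for LPSx2 numbered 5068, against 498 without the lists with duplicates. Of 140 single results not called, 2211 of 2223 alternatives kept them so, but this tally does not measure how stable they are. For LPSx2 against LPSx1 the main fits called 0 of 9134 genes and 0 of 28794 regions. The full merged lists called 0 genes in every comparison, so many of these outcomes could hardly differ. The distal Csf3r region that passed in the full merged lists is not counted there as a change. Lanes 3 and 4 were not fitted alone. Read depth is unknown, and a gene with few peaks can change only in whole peaks, which limits every count here.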
